A study of Mus musculus with 6 samples.

Results

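G2 and mitosis genes encode the proteins that carry a cell from the end of DNA replication through chromosome segregation and the final cut between daughter cells. Of the 23284 gene symbols in the deposited tables, 40 were taken as this group from a list of names fixed by symbol, and all 40 were found. They were read in C1498 cells, a mouse acute myeloid leukemia (AML) line that had been made to express green fluorescent protein and grown from a single clone. The cells had been injected intravenously into young adult female C57BL/6 J mice and were sorted from bone marrow as GFP+ CD49b+ cells on day 21. The group of 3 cytarabine-treated mice is compared with 3 control mice, and each mouse gave 1 library. The control mice carried the same leukemia, and the sample records call them both PBS-treated and untreated. The dose and days of cytarabine are not stated for the RNA mice in particular.

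The G2 and mitosis genes are switched on late in the cell cycle. MuvB complexes with B-MYB and FOXM1 act at their promoters, many of which hold a short element called the cell cycle genes homology region, spelled TTTGAA or TTCGAA, together with CCAAT boxes bound by NF-Y. The products then work in sequence: CDK1 with cyclins A and B drives entry into mitosis, the spindle assembly checkpoint holds cells until every chromosome is attached, and the anaphase-promoting complex (APC/C) marks cyclin B and securin for destruction. Cytarabine is a cytidine analog that is built into DNA and stalls replication, so it acts on cells in S phase, upstream of the steps that these genes serve.

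The values are FPKM, which scale the fragments of a gene by its exon length and by the mapped total of the library, so levels of different genes can be set side by side. Each gene was tested with limma on log2(FPKM + 1), and every log2 fold change below is cytarabine minus control on that scale. Library totals, estimated from the spacing of low values, ran from 11410000 to 18870000 reads. At those totals an estimated 177.5 reads or more lay behind every G2 and mitosis gene in every library. The lowest level of any of the 40 genes was 5.25 FPKM (Cenpf, cytarabine 2) and the highest was 138 FPKM (Cdc20, control 3), so all 40 passed the minimum mean of 1 FPKM.

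Transcripts of other tissues and cell types were unequal between libraries. Most crossed the groups, while neutrophil transcripts were lower with cytarabine. Zg16, a goblet cell gene of the colon, reached 1948, 2207 and 1049 FPKM in the libraries cytarabine 2, cytarabine 3 and control 1, but only 9.49 to 137 FPKM in the other 3. The 8 leukocyte and C1498 markers, among them Ptprc and Cd3e, summed to 1619 to 1747 FPKM in the libraries with much colon transcript and to 2092 to 2238 FPKM in those with little. Among them Itga2, the gene of the sort marker CD49b, was at 8.11, 7.79 and 7.88 FPKM in treated mice, against 10.6, 13.3 and 12.8 FPKM in control mice. Its log2 fold change was -0.57 (adjusted p = 0.136, limma), and that of Spn was 0.65 (adjusted p = 0.183). The groups of neither gene overlapped. The markers of colon crypt progenitors were low in all libraries, with a sum over 6 genes of 6.95 to 11.04 FPKM, most of it Axin2 (4.49 to 7.62 FPKM). Ephb2 and Ascl2 were higher in the libraries with much colon transcript, with Ephb2 at 0.750 to 1.34 FPKM against 0.0189 to 0.193 FPKM. Axin2 and Olfm4 were highest in control 3, which had little, and Lgr5 and Smoc2 overlapped. Early myeloid genes such as Mpo and Elane summed to 268 FPKM over 5 genes in cytarabine 1 and to 9.95 to 35.8 FPKM elsewhere. The 10 neutrophil markers summed to 1482, 261 and 248 FPKM in cytarabine 1, 2 and 3 and to 1487, 2097 and 2065 FPKM in control 1, 2 and 3. At an unadjusted p under 0.05 in limma, 7 of the 10 were lower and 0 higher (9.81% and 7.6% of all tested genes). Every cytarabine library lay below every control library for 6 of them (12.9% of all tested genes), and 1 had a log2 fold change above 0. No fit held a score for neutrophil transcripts. Heart genes summed to 2518 FPKM in control 1 and to 7.46 to 685 FPKM elsewhere, with Nppa, an atrial hormone, at 1.27 to 1480 FPKM. Smooth muscle genes summed to 24.3 to 1165 FPKM, macrophage genes to 10.1 to 143 FPKM, erythroid genes to 14.2 to 114 FPKM, and B, NK and T cell genes to at most 14.3, 5.94 and 2.47 FPKM. The part of these transcripts in the results was not tested, and the main value is also given within the libraries rich or poor in colon transcript.

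Promoters of 33 of the 40 genes were present in the RefSeq table for GRCm38, in 35 windows that reach 250 bases upstream of a start. The letters TTTGAA or TTCGAA, read on both strands, stood in 14 of the 35 windows (40%), against 17.15% of all 32851 windows. CCAAT on either strand stood in 28 of 35 (80%), against 33.85% of all windows. A CCAAT that began 20 to 40 bases upstream of the homology element was found in 9 of 35 windows (25.7%) and in 0.81% of all windows, a spacing chosen after the windows had been read. These are matches of letters and not measured binding. The stretches below end at the base before the RefSeq start and are written from 5′ to 3′ on the gene's strand, with both motifs in capitals on either strand. They belong to the 8 genes with the smallest p among those with the element upstream and are shown because these genes include both the lower and the higher ones. A match in Bub3 is left out because the stretch lies inside a longer annotated transcript.
Prc1 (chr7:80294376-80294475, strand +): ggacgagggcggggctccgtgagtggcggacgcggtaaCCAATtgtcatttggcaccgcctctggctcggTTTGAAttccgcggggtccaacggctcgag
Ube2c (chr2:164769829-164769928, strand +): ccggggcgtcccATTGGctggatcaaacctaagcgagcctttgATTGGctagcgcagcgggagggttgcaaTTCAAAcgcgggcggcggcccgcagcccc
Kif11 (chr19:37376282-37376381, strand +): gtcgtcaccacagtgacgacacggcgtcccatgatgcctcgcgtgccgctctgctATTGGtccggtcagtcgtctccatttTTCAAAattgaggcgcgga
Bub1b (chr2:118598011-118598210, strand +): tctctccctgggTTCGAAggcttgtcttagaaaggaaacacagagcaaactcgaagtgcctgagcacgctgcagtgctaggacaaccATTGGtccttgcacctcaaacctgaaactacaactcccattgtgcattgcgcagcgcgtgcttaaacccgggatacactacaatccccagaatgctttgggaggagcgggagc
Ccnb2 (chr9:70421555-70421754, strand -): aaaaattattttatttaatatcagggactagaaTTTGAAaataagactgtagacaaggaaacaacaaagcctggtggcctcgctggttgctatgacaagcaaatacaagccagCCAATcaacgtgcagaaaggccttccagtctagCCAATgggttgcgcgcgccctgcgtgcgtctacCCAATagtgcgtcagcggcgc
Espl1 (chr15:102296193-102296292, strand +): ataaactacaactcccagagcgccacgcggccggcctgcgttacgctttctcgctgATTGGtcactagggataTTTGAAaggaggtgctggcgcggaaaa
Cdc20 (chr4:118437344-118437443, strand -): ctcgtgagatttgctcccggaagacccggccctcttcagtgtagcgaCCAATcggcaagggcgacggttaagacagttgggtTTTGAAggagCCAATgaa
Cdk1 (chr10:69352913-69353012, strand -): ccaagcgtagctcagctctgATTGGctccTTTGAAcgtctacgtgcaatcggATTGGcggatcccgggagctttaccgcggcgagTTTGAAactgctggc
In Prc1 the CCAAT box begins 62 bases and the homology element 30 bases before the start. A CCAAT box upstream of the element stands at 57 with 29 bases in Ube2c, at 45 with 19 in Kif11, at 44 with 27 in Espl1, at 53 with 18 in Cdc20 and at 48 with 15 in Cdk1. Cdc20 has another CCAAT at 8 bases, and Cdk1 has another CCAAT at 80 and another element at 71 bases. Bub1b and Ccnb2 hold the letters farther out, at 188 and 167 bases, and Ccnb2 has 3 CCAAT boxes nearer the start. The 13 genes with the element had a median log2 fold change of -0.21, and 4 were lower at an unadjusted p under 0.05 in limma. The 20 with a window but without the element had -0.25, and 10 were lower at that threshold. Over all tested genes 9.81% were lower at it. The other 7 genes had no promoter entry (median -0.27). A link between the element and the fold changes was not tested.

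Most G2 and mitosis genes had somewhat lower levels in the leukemia cells of cytarabine-treated mice, and none passed the test after adjustment over all genes. The log2 fold change was below 0 for 34 of the 40, against 50.3% of all 11703 tested genes, and the median was -0.26 against -0.0015. No gene of the 40 passed an adjusted p of 0.05, and neither did any tested gene (0%), with a lowest adjusted p among the 40 of 0.144 (limma, Benjamini-Hochberg). Of all tested genes 2038 (17.4%) had an unadjusted p under 0.05 in limma. At an unadjusted p under 0.05, 17 of the 40 (42.5%) were lower, where 9.81% of all tested genes were, and 0 were higher, where 7.6% of all were. Every cytarabine library lay below every control library for 15 of the 40 genes (background 12.9%) and above for 1 (background 10.9%). The counts within single roles below are parts of these 40 and are to be read against the same shares of all tested genes. Over the 17 genes lower at the unadjusted threshold, log2 fold changes ran from -0.87 to -0.24 and adjusted p from 0.144 to 0.285 (limma). In bulk RNA, fewer cells in G2 and mitosis cannot be told apart from less of these RNAs per cell.

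**Figure D1:**
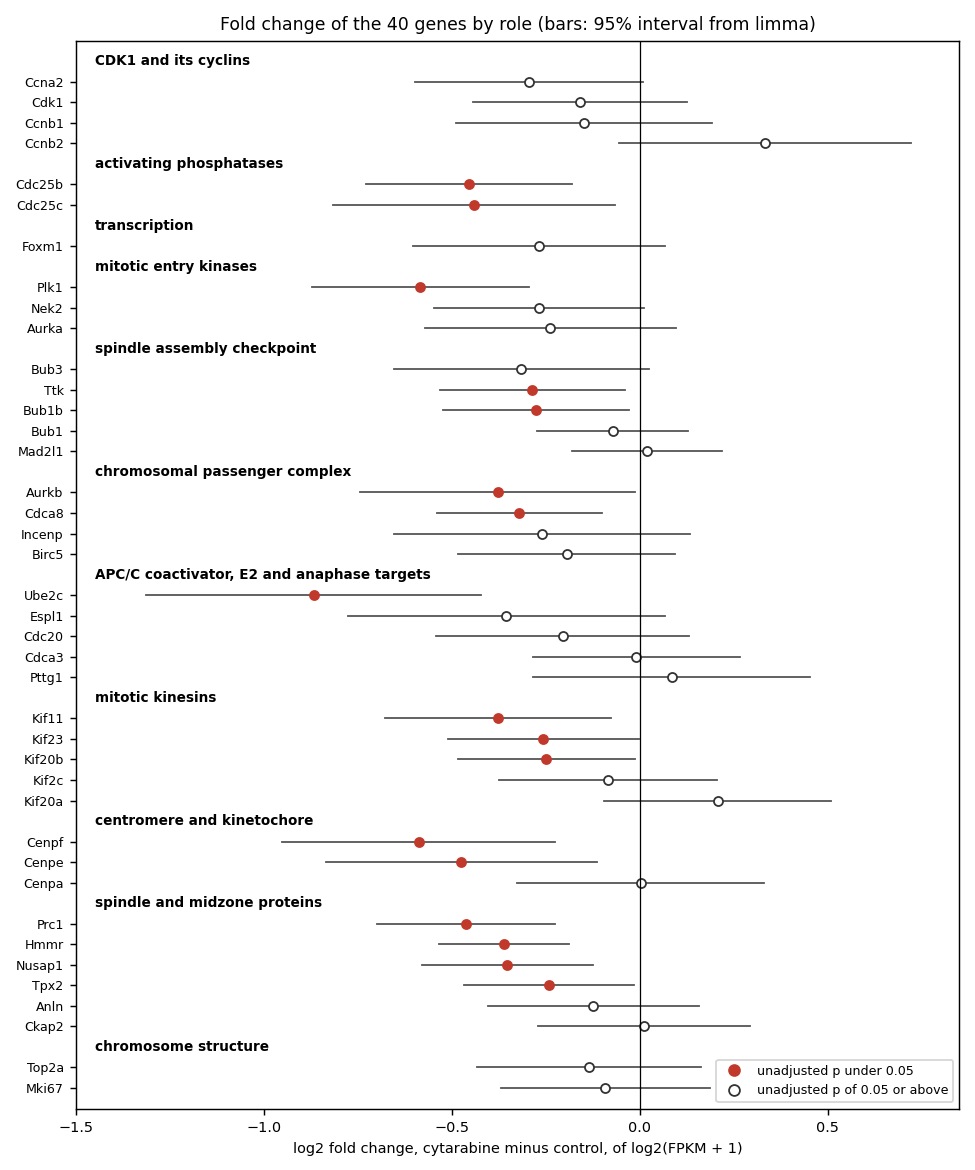
Log2 fold change of each of the 40 genes, cytarabine minus control, on the log2(FPKM + 1) scale, grouped by role, with bars for the 95% interval from limma and filled points for an unadjusted p under 0.05. All 17 filled points lie left of 0, from Ube2c at -0.87 to Tpx2 at -0.24, and Ccnb2 and Kif20a lie farthest right at 0.33 and 0.21.

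None of the genes of CDK1 and its cyclins passed the unadjusted threshold. Cdk1, the kinase that drives mitotic entry (chromosome 10 from 69335146 to 69352938, GRCm38), was at 49.1, 39.4 and 38.1 FPKM in treated mice 1, 2 and 3, against 43.2, 49.0 and 48.9 FPKM in control mice 1, 2 and 3. The groups overlapped, and its log2 fold change was -0.16 with a 95% interval from -0.44 to 0.12 (adjusted p = 0.461, limma). Ccnb1, cyclin B1 (chromosome 13 from 100778650 to 100786570), was at 53.8, 55.7 and 49.4 FPKM against 47.6, 66.0 and 64.4 FPKM. All 3 of its cytarabine values lay between the lowest and the highest control value (log2 fold change -0.15, 95% interval -0.49 to 0.19, adjusted p = 0.553). Ccna2, cyclin A2, which also acts in S phase, had 78.3 ± 6.83 FPKM with cytarabine and 96.8 ± 13.4 FPKM in controls (SD, n = 3 each). Its log2 fold change was -0.30 with a 95% interval from -0.60 to 0.01, and the groups overlapped.

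Cyclin B2 stood apart from cyclin B1. Ccnb2 (chromosome 9 from 70407692 to 70421547) was at 69.6, 84.5 and 65.8 FPKM in treated mice, against 46.8, 64.8 and 63.1 FPKM in control mice. It was the 1 gene of the 40 with every cytarabine library above every control library, by a narrow gap between cytarabine 3 and control 2, and its fold change of 0.33 in log2 (standard error 0.16, adjusted p = 0.331, limma) did not pass either threshold. The ratio of Ccnb2 to Ccnb1, which cancels the scale of a library, was 1.29, 1.52 and 1.33 in cytarabine 1, 2 and 3. In control 1, 2 and 3 it was 0.983, 0.982 and 0.979. The ratio was thus nearly constant over the control mice, including the one rich in colon transcript, and on average 1.40-fold higher with cytarabine. Its exact two-sided permutation p was 0.1, the smallest that 3 against 3 allows, and the ratio was chosen after the values were seen. GENCODE lists a processed copy of each gene, Ccnb1-ps and Ccnb2-ps, among which the authors' counting could have divided reads.

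**Figure D2:**
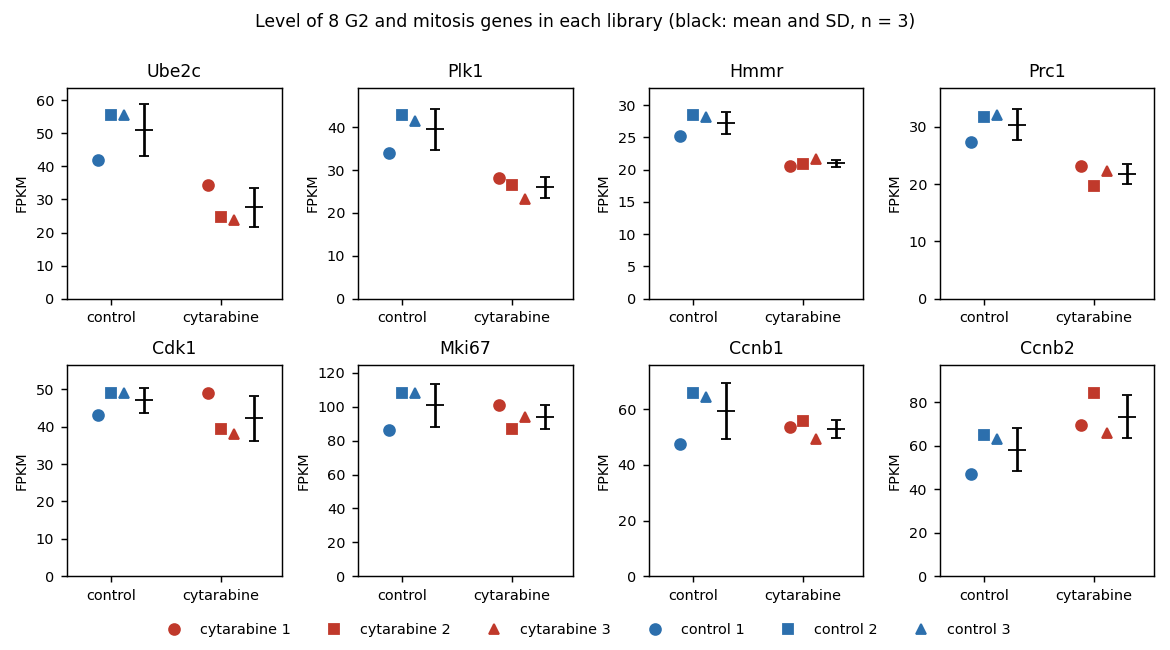
FPKM of 8 genes in the 3 control libraries (blue) and 3 cytarabine libraries (red), with symbols for the library number and black bars for the mean and SD of 3 mice. Ube2c, Plk1, Hmmr and Prc1 show no overlap between groups, Cdk1, Mki67 and Ccnb1 overlap, and Ccnb2 is higher with cytarabine.

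Both phosphatase genes of the group, whose products remove inhibitory phosphates from CDK1, were lower at the unadjusted threshold. Cdc25b was at 9.73, 11.6 and 9.07 FPKM in treated mice, against 13.2, 14.0 and 15.5 FPKM in control mice, a difference of -0.46 in log2 (standard error 0.11, adjusted p = 0.167, limma). Cdc25c was at 13.03, 8.65 and 10.1 FPKM against 13.2, 15.1 and 15.4 FPKM, with cytarabine 1 just below control 1 (log2 fold change -0.44, standard error 0.15, adjusted p = 0.237). Neither gene's groups overlapped. With scores for colon and heart transcripts in the fit, the fold changes in log2 were -0.74 for Cdc25b and -0.079 for Cdc25c. Exons of Cdc25c overlap those of an antisense gene over 623 bases in GENCODE, and the strand setting of the authors' counting is not given in the sources used here. Such antisense overlap is annotated for 11 of the 40 genes.

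Among the kinases of mitotic entry, the largest difference was in Plk1, the polo-like kinase that matures centrosomes and promotes CDK1 activation. Plk1 (chromosome 7 from 122159439 to 122169873) was at 28.1, 26.6 and 23.2 FPKM in treated mice, against 34.1, 42.8 and 41.5 FPKM in control mice. All 3 treated libraries lay below the lowest control, and the difference in log2 was -0.58 (standard error 0.12, adjusted p = 0.149, limma). Aurka and Nek2, kinases of the centrosome, had log2 fold changes of -0.24 and -0.27 with overlapping groups. Foxm1, the transcription factor of this group, was at 35.5, 28.8 and 27.4 FPKM against 31.6, 39.1 and 40.2 FPKM. Its groups overlapped because cytarabine 1 exceeded control 1 (log2 fold change -0.27, 95% interval -0.60 to 0.07, adjusted p = 0.352).

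Of the 5 checkpoint genes, 2 were lower at the unadjusted threshold. Ttk, the kinase MPS1 that starts the checkpoint signal, was at 18.9, 16.5 and 16.9 FPKM in treated mice, against 18.99, 22.3 and 23.3 FPKM in control mice (log2 fold change -0.29, standard error 0.10, adjusted p = 0.240, limma). The groups of Ttk were parted only by the small gap between cytarabine 1 and control 1. Bub1b, which encodes BUBR1 of the checkpoint complex, had 74.1 ± 6.81 FPKM with cytarabine and 89.9 ± 8.38 FPKM in controls (SD, n = 3 each; log2 fold change -0.28). Bub3 and Bub1 had log2 fold changes of -0.32 and -0.07 with overlapping groups. Mad2l1, the checkpoint effector MAD2, was among the higher levels of the group at 112 to 127.5 FPKM with cytarabine and 111 to 128 FPKM in controls, with overlapping groups. Its log2 fold change of 0.02 had a 95% interval from -0.18 to 0.22.

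The chromosomal passenger complex, which corrects wrong attachments of chromosomes, had 4 members in the group, all with log2 fold changes below 0. Cdca8, its subunit borealin, was at 68.6, 61.3 and 60.7 FPKM in treated mice, against 71.9, 82.1 and 85.04 FPKM in control mice (log2 fold change -0.32, standard error 0.09, adjusted p = 0.192, limma). Its groups did not overlap. Aurkb, the kinase of the complex, had a log2 fold change of -0.38 with overlapping groups (unadjusted p = 0.0449). Birc5 (survivin) and Incenp had -0.20 and -0.26 and did not pass.

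The gene with the largest difference of the 40 belongs to the machinery that ends mitosis. Ube2c, the ubiquitin-conjugating enzyme that works with the APC/C (chromosome 2 from 164769898 to 164778822), was at 34.4, 24.7 and 23.7 FPKM in treated mice, against 41.9, 55.4 and 55.5 FPKM in control mice. Its mean was 27.6 ± 5.91 FPKM against 50.9 ± 7.82 FPKM (SD, n = 3 each), and the difference in log2 was -0.87 (standard error 0.18, adjusted p = 0.151). The groups did not overlap. Exons of Ube2c overlap those of the antisense muscle gene Tnnc2 over 592 bases, and Tnnc2 was at 0 to 5.65 FPKM, highest in control 2. Cdc20, the coactivator of the same complex, had 107 ± 13.3 FPKM against 124 ± 16.5 FPKM with overlapping groups (log2 fold change -0.21, adjusted p = 0.427). The ratio of Ube2c to Cdc20 was 0.305, 0.212 and 0.258 in cytarabine 1, 2 and 3 and 0.397, 0.435 and 0.402 in control 1, 2 and 3, a ratio chosen after the values were seen. Espl1 (separase, which cuts cohesin) had a log2 fold change of -0.36, Pttg1 (securin, its inhibitor) 0.08 and Cdca3 (a trigger of mitotic entry degraded through the APC/C) -0.01, and none of the 3 passed.

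Of the 5 kinesins, the motors of the spindle, 3 were lower at the unadjusted threshold. Kif11, which pushes the spindle poles apart, was at 45.6, 33.5 and 37.8 FPKM in treated mice, against 47.9, 49.7 and 54.1 FPKM in control mice, with no overlap (log2 fold change -0.38, standard error 0.12, adjusted p = 0.223, limma). Kif23 and Kif20b, both kinesins of cytokinesis, had log2 fold changes of -0.26 and -0.25 and passed the unadjusted threshold. Kif2c, which depolymerizes microtubules at centromeres, had -0.08. Kif20a, the kinesin that carries the passenger complex to the midzone, had 34.7 ± 4.50 FPKM with cytarabine and 29.9 ± 3.24 FPKM in controls (SD, n = 3 each; log2 fold change 0.21, 95% interval -0.09 to 0.51). It was named with Ccnb2 after the values were seen, as the other gene with a fold change above 0.1. The exons of Kif20a overlap the antisense gene Cdc23 over 1271 bases, and Cdc23 was at 23.2 to 27.6 FPKM.

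At the centromere, both outer kinetochore genes were lower at the unadjusted threshold, and the centromeric histone did not pass. Cenpf, a large kinetochore protein that accumulates in G2, was at 6.69, 5.25 and 6.29 FPKM in treated mice, against 8.01, 11.3 and 9.76 FPKM in control mice (log2 fold change -0.59, standard error 0.15, adjusted p = 0.173, limma). Cenpe, the kinetochore kinesin, was at 15.7, 13.2 and 14.7 FPKM against 16.6, 24.0 and 21.7 FPKM (log2 fold change -0.48, standard error 0.15, adjusted p = 0.212). In both genes every treated library lay below every control. With scores for colon and heart transcripts in the fit, the fold changes in log2 were -0.058 for Cenpf and -0.0041 for Cenpe. Cenpa, the histone H3 variant of centromeres, had 61.3 ± 6.24 FPKM against 61.4 ± 8.89 FPKM, with a 95% interval of its log2 fold change from -0.33 to 0.33.

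Of the 6 spindle and midzone genes, 4 were lower at the unadjusted threshold, and the groups of those 4 did not overlap. Hmmr, a microtubule-binding protein of the spindle pole (chromosome 11 from 40701395 to 40733422), was at 20.5, 20.9 and 21.6 FPKM in treated mice, against 25.3, 28.5 and 28.1 FPKM in control mice. The treated values lay close together, and the difference in log2 of -0.36 (standard error 0.07, adjusted p = 0.144, limma) had the smallest p of the 40. Prc1, which bundles midzone microtubules (chromosome 7 from 80294450 to 80316259), was at 23.2, 19.8 and 22.3 FPKM against 27.4, 31.8 and 32.04 FPKM (log2 fold change -0.46, standard error 0.10, adjusted p = 0.151). Nusap1, a spindle-associated protein, was at 32.6, 31.7 and 31.9 FPKM against 36.3, 45.2 and 42.7 FPKM (log2 fold change -0.35, standard error 0.09, adjusted p = 0.181). Each of these 3 genes was lower in every treated library. Prc1 overlaps exons of the antisense gene Rccd1 over 911 bases, and Rccd1 was at 2.45 to 4.85 FPKM. Tpx2, the activator of Aurora A, had a log2 fold change of -0.24, while Anln and Ckap2 had -0.12 and 0.01 with overlapping groups.

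Neither of the chromosome genes that are widely used as proliferation markers passed. Mki67, which coats mitotic chromosomes, was at 101, 87.1 and 94.2 FPKM against 86.1, 108 and 108 FPKM. The lowest value of all was that of control 1, and the log2 fold change was -0.09 with a 95% interval from -0.37 to 0.19 (adjusted p = 0.652, limma). Top2a, the topoisomerase that untangles sister chromatids, was at 137, 102 and 112 FPKM against 118, 133 and 133 FPKM. The highest value was that of cytarabine 1 (log2 fold change -0.14, 95% interval -0.43 to 0.16, adjusted p = 0.535). With the tissue scores in the fit, both fold changes turned to above 0, at 0.21 for Mki67 and 0.15 for Top2a.

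**Figure D3:**
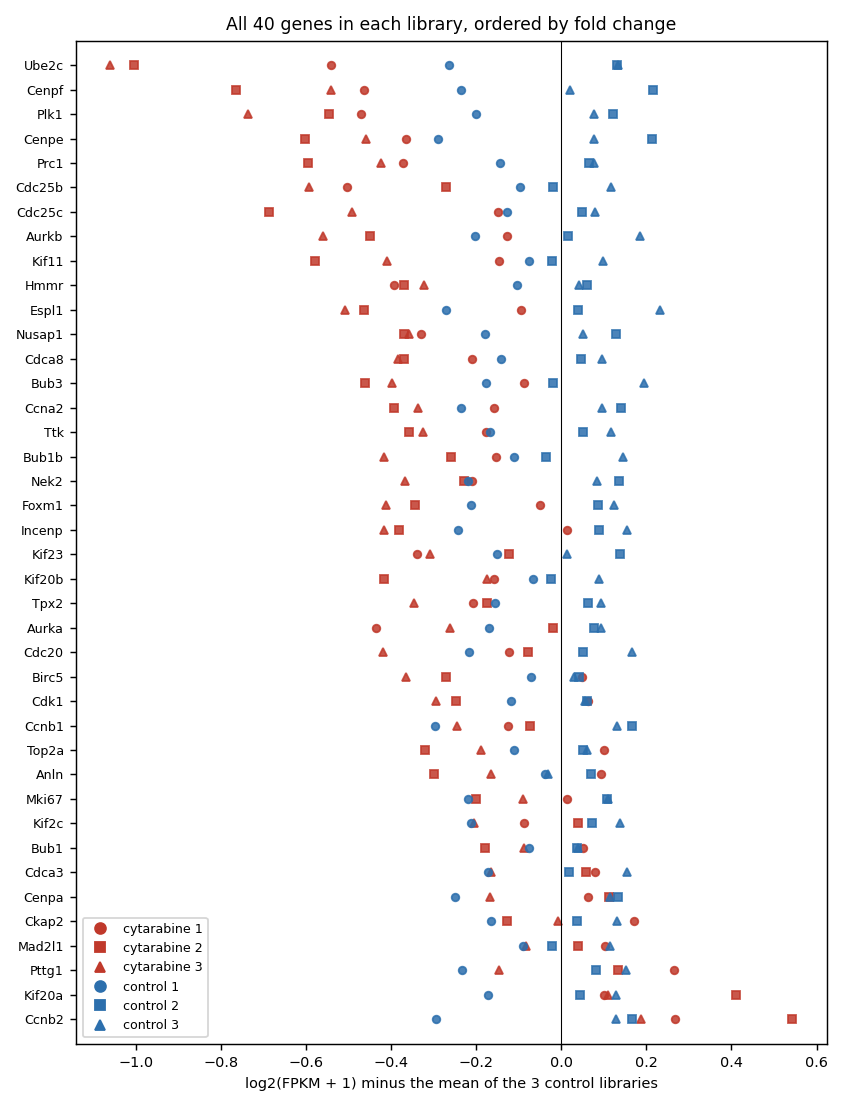
Each of the 40 genes in each library, as log2(FPKM + 1) minus the mean of the 3 control libraries, with cytarabine in red and controls in blue and a symbol for the library number, ordered by fold change. Control 1 is the leftmost blue point in all 40 rows, and Ube2c at the top has the widest separation.

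Control 1 held the same place in every gene of the group, and the other libraries did not. Among the controls, control 1, the library rich in colon transcript, was lowest for 40 of the 40 genes. Among the treated, cytarabine 1, with little colon transcript and the highest early myeloid sum, was highest for 29 of 40, while the lowest was cytarabine 3 for 21, cytarabine 2 for 15 and cytarabine 1 for 4. Of all 6 libraries, control 3 was highest for 21 genes. The mean of log2(FPKM + 1) over the 40 genes was 5.21, 5.07 and 5.02 in cytarabine 1, 2 and 3 and 5.17, 5.41 and 5.44 in control 1, 2 and 3, so cytarabine 1 lay above control 1. The group means were 5.10 ± 0.10 and 5.34 ± 0.15 (SD, n = 3 each). Within the libraries poor in colon transcript (cytarabine 1 against control 2 and 3) the median difference over the 40 genes was -0.21. There 30 of 40 were below 0, and the median over all tested genes was 0.0073. Within those rich in it (cytarabine 2 and 3 against control 1) it was -0.16, with 29 of 40 below 0. The median over all tested genes there was 0.0064. The share of all genes below 0 was not counted within a side. Each side rests on a single library in 1 group. Neither side was matched for other transcripts, since control 1 was highest in heart genes and cytarabine 1 in early myeloid genes. In a fit that also held scores for colon and heart transcripts, 4 of the 40 passed (Cdc25b, Plk1, Bub1b and Ube2c, all lower). In that fit 2.26% of all genes were lower, and the median of the 40 was -0.10. It estimates more terms from the same 6 libraries, so it detects a given difference less readily. Leaving out 1 library moved the number that passed, all of them lower, together with the share of all tested genes that were lower. It was 24 of 40 without cytarabine 1 (17.5% of all genes), 10 without cytarabine 2 (5.69%) and 9 without cytarabine 3 (5.26%). Without control 1 it was 22 (9.43%), and it was 8 without control 2 (5.64%) and 8 without control 3 (5.00%).

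The rest of the cell cycle was read from lists of other genes. Of 39 further mitosis genes, 11 were lower and 0 higher at an unadjusted p under 0.05, with a median log2 fold change of -0.15. Over all tested genes 9.81% were lower and 7.6% higher, the shares against which this and the following lists are to be read. Kif22, a chromosome-binding kinesin, was at 31.2, 28.5 and 30.8 FPKM in treated mice, against 36.0, 41.5 and 40.4 FPKM in control mice (log2 fold change -0.37, adjusted p = 0.151, limma). Spc25, a subunit of the NDC80 kinetochore complex, had a log2 fold change of -0.45 (adjusted p = 0.178). Neither gene overlapped between groups. Of 16 condensin and cohesin genes, 3 were lower and 0 higher (median -0.13), among them the cohesin subunits Smc1a (-0.25) and Stag1 (-0.27). Of 15 APC/C genes 1 was lower, Ube2s, the chain-extending partner of Ube2c, with a log2 fold change of -0.32 (adjusted p = 0.255), and the median was -0.06. Of 11 inhibitors of the cell cycle, Gadd45b was higher (0.68), with overlapping groups, and Cdkn2d was lower (-0.28), without overlap. Of 12 genes of the DREAM and MuvB complexes, 0 passed in either direction at that unadjusted threshold in limma, with a median of 0.0058.

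Lists of the earlier phases had medians above 0. Of 35 DNA replication genes 4 were higher and 0 lower at the unadjusted threshold, against the 7.6% of all genes that were higher, with 26 above 0 and 9 below. Their median log2 fold change was 0.09, and 0.0053 without cytarabine 1 or 0.021 without control 1. The mean log2(FPKM + 1) of the list overlapped between groups, at 6.36, 6.12 and 6.05 against 5.94, 6.11 and 6.17. Rrm2, the ribonucleotide reductase subunit made in S phase, was at 287, 252 and 259.9 FPKM in treated mice, against 164, 201 and 206 FPKM in control mice (log2 fold change 0.49, standard error 0.11, adjusted p = 0.155, limma). Orc6, of the origin recognition complex, had a log2 fold change of 0.38 (adjusted p = 0.141). Of 14 G1 and S cyclins, CDKs and E2F genes 3 were higher and 0 lower, with 10 above 0 and 4 below (median 0.16). Ccne2, cyclin E2, which drives entry into S phase, was at 11.2, 9.41 and 9.18 FPKM against 5.43, 5.35 and 6.37 FPKM (log2 fold change 0.70, standard error 0.11, adjusted p = 0.136). Ccne1, cyclin E1, had a log2 fold change of 0.39 (adjusted p = 0.193). For these 4 genes every treated library lay above every control.

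**Figure D4:**
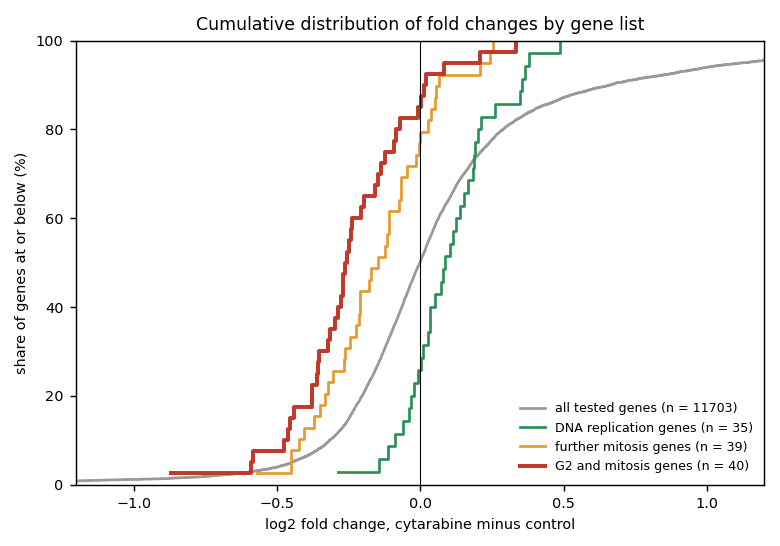
Share of genes at or below each log2 fold change, cytarabine minus control, for the 40 G2 and mitosis genes (red), 39 further mitosis genes (orange), 35 DNA replication genes (green) and all 11703 tested genes (gray). The red curve crosses 50% at -0.26, the gray curve near 0 and the green curve at 0.09.

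Setting the 2 phases against each other in the same library gave a clearer order than the levels did. The mean log2(FPKM + 1) of the 40 G2 and mitosis genes minus that of the 35 replication genes was -1.14, -1.05 and -1.04 in cytarabine 1, 2 and 3. In control 1, 2 and 3 it was -0.78, -0.70 and -0.73. A factor that scales every gene of a library cancels in this difference, apart from the pseudocount. The groups did not overlap, and their means were -1.07 ± 0.06 and -0.73 ± 0.04 (SD, n = 3 each), a gap of -0.34. Control 1, lowest of the controls in level, lay with the other controls here, and cytarabine 1, highest of the treated in level, was the lowest of all. The measure was chosen after the values were seen and is given with no test.

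**Figure D5:**
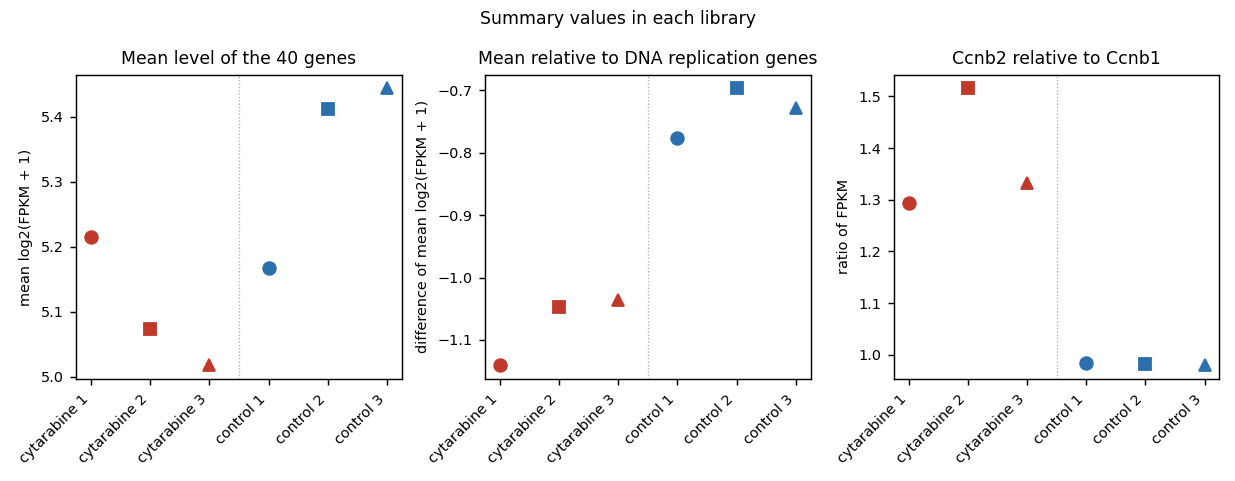
Per library, the mean log2(FPKM + 1) of the 40 genes (left), that mean minus the mean of the DNA replication genes (middle) and the ratio of Ccnb2 to Ccnb1 in FPKM (right), with cytarabine in red and controls in blue; the vertical axes do not start at 0. The left values overlap between groups, while the middle values are -1.14 to -1.04 against -0.78 to -0.70 and the right values 1.29 to 1.52 against 0.979 to 0.983.

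The size of the difference varied with the level of a gene to a small degree and hardly with its length. Over the 40 genes, Spearman's rho between log2 fold change and mean log2 level was 0.32, and with mRNA length it was -0.11. These are descriptions across genes of the same 6 libraries, and genes are not independent replicates.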

How the data were processed

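RNA was sequenced from sorted C1498 cells of 3 cytarabine-treated and 3 control mice on a HiSeq in 75-base single-end mode. Reads were aligned by the authors to mm10 using TopHat2 2.0.13, Bowtie2 2.2.3 and SAMtools 0.1.19 and they deposited FPKM values per gene symbol from Cufflinks 2.2.1, 1 library per file. The annotation, the Cufflinks options and the strand setting are not given in the sources used here. Groups and replicate numbers came from the sample records, and the libraries came from separate mice.

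From the deposited FPKM, log2(FPKM + 1) was fitted for the 11703 of 23284 genes whose mean over the 6 libraries reached 1 FPKM, by limma 3.58.1 in R 4.3.3 (eBayes with trend, two-sided, Benjamini-Hochberg over all tested genes). No count test was run, because the values are FPKM and not counts. Library totals were inferred from low FPKM of genes with 1 transcript in GENCODE M21 (GRCm38, the build of mm10), assuming fragments of 200 bases, and 64.99 to 70.65% of those values came within 0.05 of a whole read. At these totals 3 reads on 2000 bases equal 0.0883 to 0.146 FPKM; such floors cover counting error only. Positions are from GENCODE and promoters from the RefSeq table for GRCm38.p6. The fit was tested beforehand on simulated data with independent noise in each gene. That simulation held no differences shared by many genes of a library, such as tissue transcripts, so it cannot vouch for calls where these are present.

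The genes and lists were chosen with earlier results of these data known. Values in every library are given for the 12 genes with the smallest p and for Cdk1, Ccnb1, Mki67, Top2a and Foxm1. From each other list up to 2 genes in each direction with the smallest p were considered, and those that passed are named. Figures were drawn with matplotlib 3.10.9. Alternatives were another pseudocount, other filters, scalings and eBayes settings, a replicate block, tissue scores as covariates, and leaving out each library. Imaging and survival data were not analysed here.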

Additional observations from a re-analysis of the deposited data

How the results depend on the processing

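The number of the 40 genes lower at an unadjusted p under 0.05, 17 with all libraries, was 8 with the replicate block (0 higher; 994 of all genes passed, against 2038) and 4 with the colon and heart transcript scores as covariates (557 of all genes). Both of these fits estimate more terms from the same libraries, so they detect a given difference less readily. Leaving out 1 library gave from 8 (without control 2 or control 3) to 24 (without cytarabine 1), with 10 without cytarabine 2, 9 without cytarabine 3 and 22 without control 1. Over all genes the range was 1179 to 4075. The number of the 40 genes at an adjusted p under 0.05 was 0 throughout. Of all genes 1 passed with a pseudocount of 0.1, 2 with no trend, 1 with a robust trend and 0 to 5 with a library left out. The median of the 40 genes was -0.10 with the covariates and ran from -0.33 to -0.20 over the fits without 1 library. Genes whose groups do not overlap numbered 16 of 40 with all libraries (23.8% of all tested genes). Leaving out a library can only keep or raise this number. It was 28 without cytarabine 1 (55.8% of all tested genes) and 30 without control 1 (41.9%). It was 18 without cytarabine 2 (29.4%) and 16 without cytarabine 3 (28.9%). Without control 2 it was 16 (29.3%), and without control 3 it was 17 (29.9%). The cause of these differences was not tested.

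The 11 of 39 further mitosis genes that passed, where 2038 of all 11703 genes passed in either direction, changed with the setting. They became 7 with an equal sum per library (2083 of all genes), 7 with no trend (1962), 6 with the block (994) and 1 with the covariates (557). Without 1 library they numbered 4 to 15, with 15 without control 1 (2097 of all genes), 11 without cytarabine 1 (4075) and 4 without control 3 (1179). Their median was -0.024 with the covariates. The median of the DNA replication genes moved by less than the spread between libraries under each alternative and was 0.0053 to 0.15 without 1 library. These lists, the difference from replication genes and the ratio of Ccnb2 to Ccnb1 were recomputed under alternatives chosen after seeing the data. Without 1 library that difference ran from -0.36 to -0.31 and the log2 of the ratio from 0.42 to 0.53.

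With the covariates the log2 fold change changed sign to 0.019 for Ccna2, 0.11 for Bub1, -0.053 for Mad2l1, 0.16 for Anln, 0.15 for Top2a and 0.21 for Mki67. Cdca3 was at 0.010 with an equal sum per library and 0.020 with quantile normalization. Without 1 library, the ranges that crossed 0 were -0.026 to 0.076 for Mad2l1, -0.032 to 0.20 for Pttg1, -0.095 to 0.069 for Cdca3, -0.12 to 0.087 for Cenpa and -0.071 to 0.081 for Ckap2. None of these genes passed a threshold in the fit with all libraries. The genes that were lower at the unadjusted threshold in that fit stayed below 0 with the covariates, but some came close to 0. Cenpe was at -0.0041, Kif20b at -0.031, Cenpf at -0.058 and Cdc25c at -0.079. Cdc25b, Bub1b and Tpx2 were farther below 0 than in the main fit, at -0.74, -0.37 and -0.26.

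Same-numbered libraries are different mice, and their deviations from the group means correlated at -0.71, -0.25 and -0.59. Unequal tissue transcripts enter these deviations, so the values cannot show whether same-numbered mice were handled together. The pairing by number enters only the block values above.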
